A study of Mus musculus with 14 samples.

Results

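The 52 genes described here encode enzymes that break down amino acids, together with both enzymes of creatine synthesis, in whole mouse kidney. They were taken as the count rows whose Ensembl identifier carries 1 of 52 listed mouse symbols in the GENCODE M21 annotation. All 52 were found among the 47729 genes of the count files, and all 52 were among the 17926 genes with enough counts to test. For description the genes were sorted into 10 pathways: tyrosine, tryptophan, betaine and methyl groups, cysteine, glycine and serine, proline and ornithine, arginine and creatine, branched-chain amino acids, lysine, and glutamate with aspartate.

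Messenger RNA was sequenced from 14 kidney libraries. The labels give 4 libraries of wild-type kidney after 7 days of unilateral ureteral obstruction (WT_UUO) and 3 of untreated wild-type kidney (WT_normal). A further 4 libraries come from obstructed kidney of mice labelled as SMOC2 transgenic (SMOC2_UUO), and 3 from untreated kidney of mice with that label (SMOC2_normal). Ureteral obstruction, the tying off of a ureter, is a mouse model of tubular injury and kidney fibrosis. Smoc2 encodes a secreted matrix protein. Nothing in the sources names the promoter of the transgene, the cells that carry it, or the strain and age of these mice. A treatment text on the same samples speaks instead of male Balb/c mice given folic acid, which goes against the genotype, treatment and design labels. The groups follow those labels. No label ties a library to an animal of its own. Replicate spread, and every p-value that rests on it, may therefore be technical. Replicates of a group did differ by more than counting noise, with a chi-square of 16.2 to 76.9 per gene, where counting noise alone gives about 1.

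The proximal tubule of the kidney takes up filtered amino acids and breaks many of them down, much as the liver does. Most of the breakdown steps run in mitochondria and feed the citric acid cycle, whereas tyrosine and tryptophan breakdown starts in the cytosol. The kidney also carries out the committed step of creatine synthesis, which joins arginine and glycine, and it makes arginine from circulating citrulline.

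Total counts ran from 19483994 to 30033405 per library. The library labels were checked with Smoc2 itself. Smoc2 had 124, 89.9, 83.9 and 87.1 CPM (counts scaled to a common, TMM-adjusted library size) in the SMOC2_UUO libraries, against 150.4, 131, 158 and 148 CPM in the WT_UUO libraries. In untreated kidney it had 27.8, 26.9 and 10.6 CPM in the SMOC2_normal libraries, against 12.6, 19.7 and 43.3 CPM in the WT_normal libraries. Smoc2 was not called higher in the libraries labelled transgenic: the log2 difference was -0.61 after obstruction (edgeR adjusted p = 0.389) and -0.22 without it (edgeR adjusted p = 0.85). The second value turned to 0.43 without WT_normal replicate 3 and to 0.11 without SMOC2_normal replicate 4. Xist, which is made from an inactive X chromosome, lay between 964 and 1423 CPM in every library, so none of the 14 libraries looked male. For these reasons the transgenic groups are called by their label only.

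After obstruction nearly every gene of the set fell. In WT_UUO against WT_normal libraries 51 of 52 were lower and 0 were higher, where 29.8% of all tested genes were called lower and 31.3% higher (edgeR's quasi-likelihood test with Benjamini-Hochberg adjustment over all tested genes, adjusted p under 0.05). In SMOC2_UUO against SMOC2_normal libraries 51 of 52 were again lower and 0 higher, with 30.4% of all tested genes called lower and 32.5% higher. The exception in both was Arg2, the mitochondrial arginase. The median log2 change of the 52 genes was -2.14 in wild-type kidney and -2.30 in SMOC2-labelled kidney, beside 0.05 and 0.04 over all tested genes. Of the 52 genes, 50 fell at least 2-fold in wild-type kidney, where 12.8% of all tested genes did, and 32 fell at least 4-fold, where 4.02% did. In SMOC2-labelled kidney 49 fell at least 2-fold and 33 at least 4-fold, beside 13.7% and 4.66% of all tested genes. In whole kidney, fewer tubule cells and less RNA per cell cannot be told apart.

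The groups rarely overlapped. Every WT_UUO library lay below every WT_normal library for 51 of 52 genes, which was so for 29.5% of all tested genes. Every SMOC2_UUO library lay below every SMOC2_normal library for 50 of 52 genes, beside 30.1% of all tested genes, and the overlapping genes were Prodh2 and Arg2. Genes whose enzymes work in the cytosol or elsewhere outside mitochondria had a median log2 change of -2.61 in wild-type and -2.57 in SMOC2-labelled kidney (22 genes). Genes of mitochondrial enzymes had medians of -2.07 and -2.16 (29 genes). Aldh7a1, whose enzyme is found in both places, is not in either count.

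**Figure D1:**
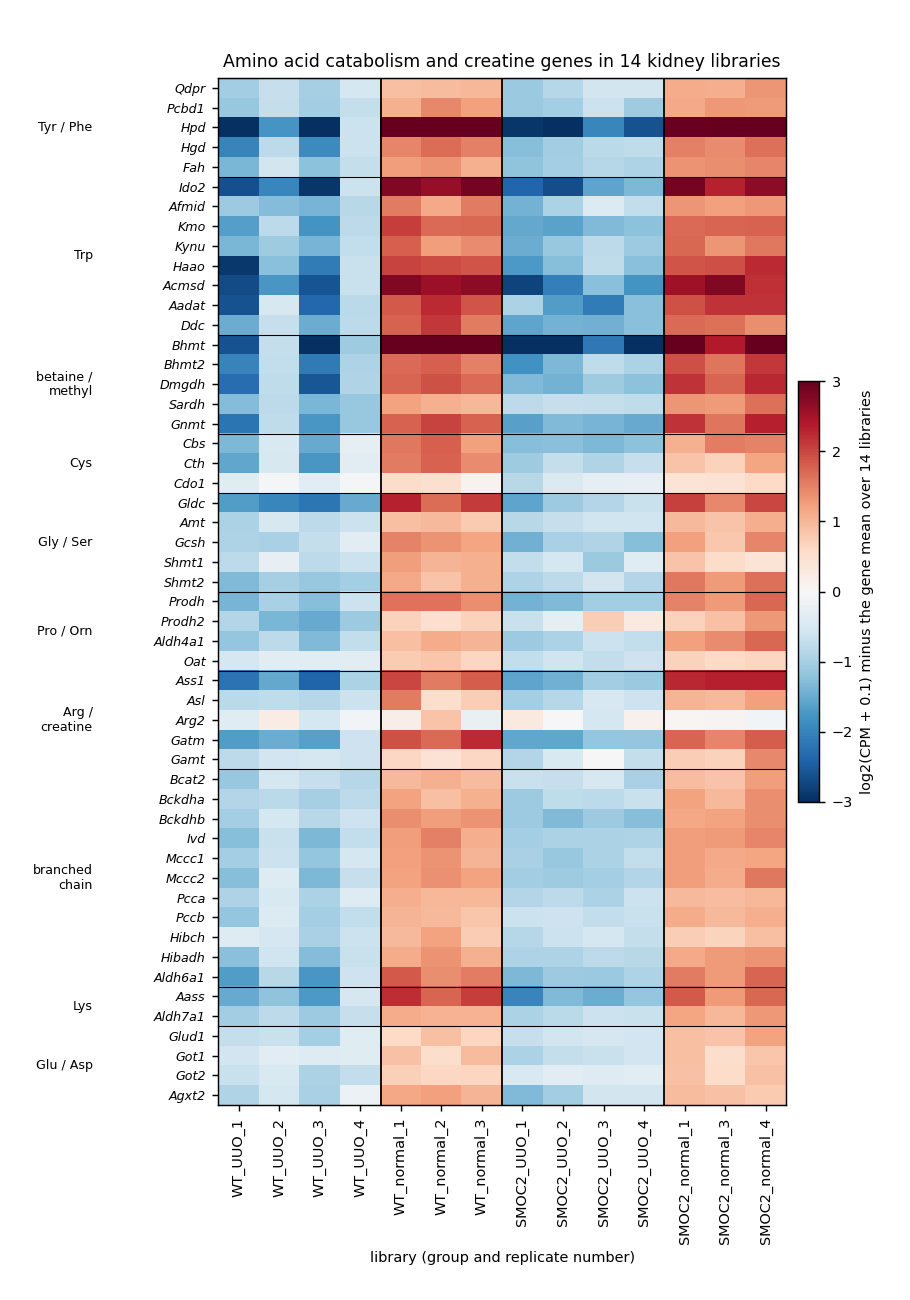
Heat map of the 52 genes (rows, by pathway) in the 14 libraries (columns, named by group and replicate number), coloured by log2(CPM + 0.1) minus the mean of each gene over all 14 libraries. Colours end at -3 and 3. In wild-type kidney every obstructed library is bluer than every normal library for 51 of 52 genes, and the row of Arg2 is pale throughout.

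**Figure D2:**
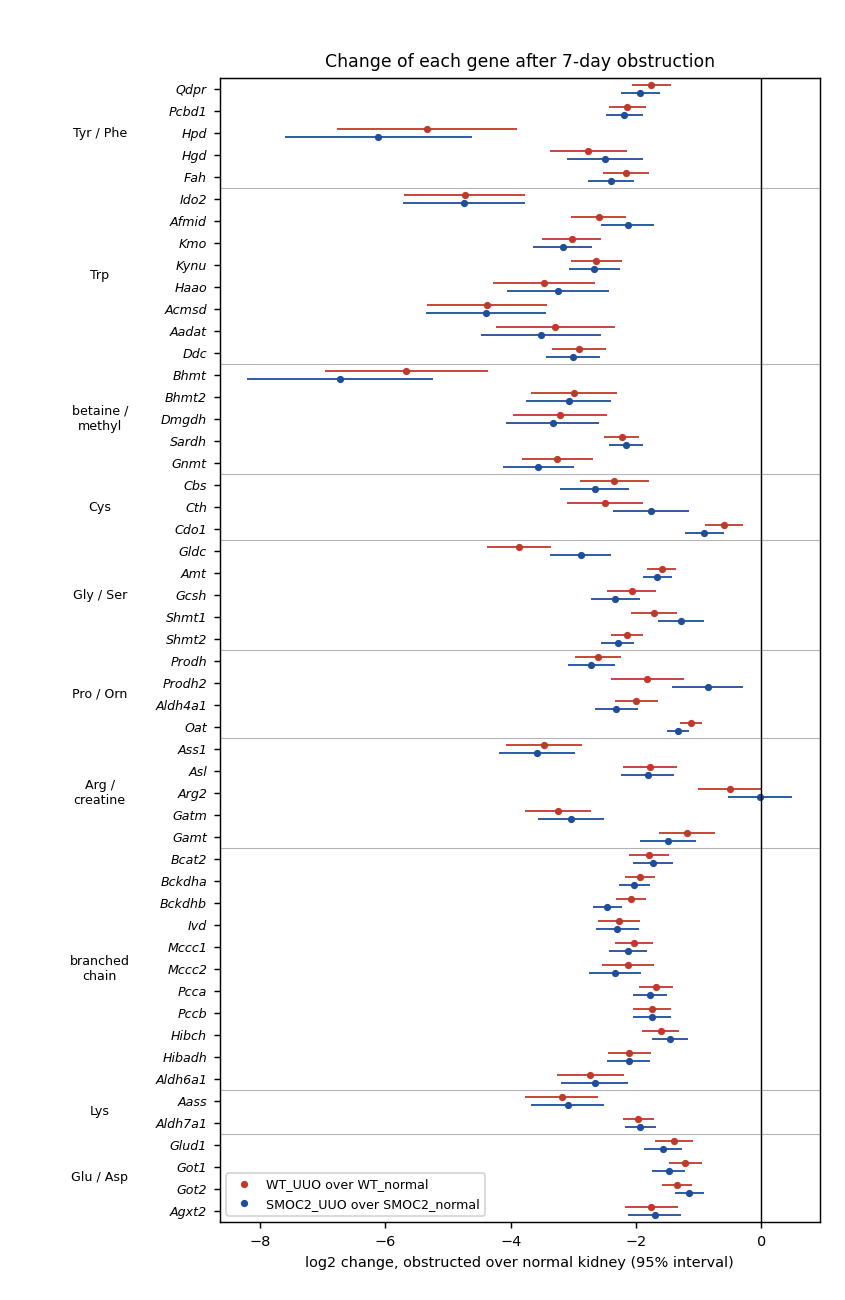
Log2 change of each gene, WT_UUO over WT_normal in red and SMOC2_UUO over SMOC2_normal in blue; points are edgeR estimates and bars 95% intervals. Changes run between -5.66 for Bhmt and -0.51 for Arg2 in wild-type kidney, and the interval of Arg2 spans 0 in SMOC2-labelled kidney.

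The DNA just before the gene starts was read for the motifs of HNF1 and HNF4, transcription factors of liver and proximal tubule, because the genes fell together. RefSeq gave windows from 250 bases before the start for 45 of the 52 genes (build GRCm38.p6). The HNF1 motif GTTAATNAT, read on both strands, stood before 3 of the 45 genes (6.67%), against 234 of 27025 genes with a window (0.866%). The HNF4 motif CAAAGTCCA stood before 2 of 45 (4.44%), against 122 of 27025 (0.451%). These motifs do not overlap each other in the windows shown. The HNF4 motif before Aadat is not shown. The 4 stretches printed here, 80 bases each on the strand of the gene, hold a motif or its reverse complement in capitals. They lie at chr7:30493495-30493574 (plus strand) for Prodh2, chr8:95888567-95888646 (minus strand) for Got2, chr10:61089251-61089330 (plus strand) for Pcbd1 and chr15:10358452-10358531 (plus strand) for Agxt2.
Prodh2: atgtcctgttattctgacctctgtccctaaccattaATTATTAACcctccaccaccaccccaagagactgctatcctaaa
Got2: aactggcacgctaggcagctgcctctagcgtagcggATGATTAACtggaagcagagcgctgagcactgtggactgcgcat
Pcbd1: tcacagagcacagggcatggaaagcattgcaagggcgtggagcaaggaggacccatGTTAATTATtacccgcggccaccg
Agxt2: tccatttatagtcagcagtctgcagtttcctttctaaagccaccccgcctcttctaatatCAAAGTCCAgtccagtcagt
The motif begins 127 bases before the RefSeq start of Prodh2, 209 before that of Got2, 24 before that of Pcbd1, and 21 and 67 before the 2 RefSeq starts of Agxt2. In wild-type kidney these genes fell by 1.82, 1.35, 2.14 and 1.75 on the log2 scale in that order, and Aadat fell by 3.29, beside the median of -2.14 over the 52 genes. A match is a description of letters, and no match says only that these letters are not in the window.

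All 5 genes listed under tyrosine breakdown were lower in both comparisons, with medians of -2.16 and -2.39. They do not cover every step of the route. Hpd, which turns 4-hydroxyphenylpyruvate into homogentisate, had 6.11, 20.1, 4.21 and 44.0 CPM in the WT_UUO libraries, against 945, 742 and 551 CPM in the WT_normal libraries. It had 8.99, 7.92, 17.8 and 11.2 CPM in the SMOC2_UUO libraries, against 544, 639.9 and 1201 CPM in the SMOC2_normal libraries. All 8 obstructed libraries were far below all 6 normal libraries, and WT_UUO replicate 4 was the highest of the obstructed ones. Hpd fell 40.3-fold in wild-type kidney (log2 -5.33, 95% interval -6.77 to -3.89, edgeR adjusted p = 9.95e-06) and 69.2-fold in SMOC2-labelled kidney. The wild-type log2 change of Hpd was -6.20 without WT_UUO replicate 4 and -5.94 with limma-voom. It ranked 7th and 11th from the most lowered of all 17926 tested genes.

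The next enzymes of the route fell less. Hgd, homogentisate dioxygenase, fell 6.78-fold in wild-type and 5.62-fold in SMOC2-labelled kidney, and Fah, which splits fumarylacetoacetate at the end of the route, fell 4.48-fold and 5.25-fold. Qdpr and Pcbd1 recycle tetrahydrobiopterin, a cofactor of aromatic amino acid hydroxylation. Qdpr fell by 1.75 and Pcbd1 fell by 2.14 on the log2 scale in wild-type kidney.

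All 8 tryptophan genes fell at least 4-fold in both comparisons, with medians of -3.16 and -3.21. Ido2, a dioxygenase that opens the indole ring, had 0.323, 0.572, 0.247 and 1.58 CPM in the WT_UUO libraries, against 17.9, 16.1 and 19.1 CPM in the WT_normal libraries. It had 0.405, 0.317, 0.778 and 0.933 CPM in the SMOC2_UUO libraries, against 19.1, 12.98 and 16.9 CPM in the SMOC2_normal libraries. Its obstructed libraries all lay under 2 CPM and its normal libraries all above 12 CPM, a log2 change of -4.73 in wild-type kidney (edgeR adjusted p = 7.64e-07) that became -5.51 without WT_UUO replicate 4.

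Later genes of the kynurenine route had smaller fold changes than Ido2. Afmid, Kmo, Kynu and Haao act in turn on formylkynurenine, kynurenine, 3-hydroxykynurenine and 3-hydroxyanthranilate. They fell 6.05-, 8.15-, 6.19- and 11.1-fold in wild-type kidney, and 4.39-, 9.01-, 6.34- and 9.48-fold in SMOC2-labelled kidney. Acmsd, which draws the route away from quinolinate and NAD, fell 20.8-fold in wild-type and 21.1-fold in SMOC2-labelled kidney. Without WT_UUO replicate 4 the log2 change of Acmsd in wild-type kidney was -4.96, beside -4.38 with it. Qprt, which takes quinolinate on toward NAD, is not 1 of the 52 and was chosen after its values were seen. It fell by 0.81 on the log2 scale in wild-type and fell by 1.35 in SMOC2-labelled kidney.

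Aadat, the aminotransferase that makes kynurenic acid and also acts on aminoadipate, had 138, 607, 167 and 485 CPM in the WT_UUO libraries, against 3054, 4025 and 3159 CPM in the WT_normal libraries. It had 438, 265, 199 and 354 CPM in the SMOC2_UUO libraries, against 3192, 3803 and 3816 CPM in the SMOC2_normal libraries. The 4 WT_UUO libraries spread widely, with replicates 2 and 4 above replicates 1 and 3, yet all stayed below the normal range. Ddc, the decarboxylase that makes dopamine in the proximal tubule, fell 7.5-fold in wild-type and 8.04-fold in SMOC2-labelled kidney.

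The betaine and methyl-group genes held the largest fall of the set. Bhmt, which passes a methyl group of betaine to homocysteine, had 0.251, 1.21, 0 and 0.940 CPM in the WT_UUO libraries, against 38.3, 32.5 and 20.8 CPM in the WT_normal libraries. It had 0.0622, 0.159, 0.389 and 0.162 CPM in the SMOC2_UUO libraries, against 24.4, 11.2 and 26.6 CPM in the SMOC2_normal libraries. WT_UUO replicate 3 had no count of Bhmt, and no obstructed library reached 2 CPM. Bhmt fell 50.7-fold in wild-type kidney (log2 -5.66, 95% interval -6.97 to -4.36, edgeR adjusted p = 2.22e-06) and 106-fold in SMOC2-labelled kidney (log2 -6.72, edgeR adjusted p = 1.39e-06), ranking 6th of 17926 in both. The value was -6.77 with limma-voom and -6.32 without WT_UUO replicate 2 in wild-type kidney, and -7.34 without SMOC2_UUO replicate 3 in SMOC2-labelled kidney.

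Bhmt2, a paralog that uses S-methylmethionine, and Dmgdh and Sardh, which strip the remaining methyl groups off dimethylglycine and sarcosine, fell 7.96-, 9.28- and 4.68-fold in wild-type kidney. Gnmt, which methylates glycine, fell 9.54-fold in wild-type and 11.8-fold in SMOC2-labelled kidney. Bhmt and Bhmt2 are similar enough that shared reads may have been split or dropped, so their counts are uncertain. The genes Bhmt, Bhmt2 and Dmgdh are neighbours in GRCm38.p6: Bhmt at chr13:93616675-93637961, Bhmt2 at chr13:93655720-93674302, both on the minus strand, and Dmgdh at chr13:93674433-93752833 on the plus strand. Bhmt and Bhmt2 lie 17758 bases apart. Bhmt2 and Dmgdh are read in opposite directions out of a shared gap of 130 bases, shown on the plus strand, with no capitals, because both genes fell by similar amounts. Its GC content is 70.8% and it holds 6 CpG pairs.
Bhmt2-Dmgdh (chr13:93674303-93674432, GRCm38.p6): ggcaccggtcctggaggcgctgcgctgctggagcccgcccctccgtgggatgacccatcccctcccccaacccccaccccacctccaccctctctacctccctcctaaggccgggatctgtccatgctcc
The log2 changes were -2.99 for Bhmt2 and -3.21 for Dmgdh in wild-type kidney, and -3.08 and -3.33 in SMOC2-labelled kidney. Such a fall is not particular to these neighbours: Gnmt, on chromosome 17, fell 9.54-fold in wild-type kidney. Dmgdh overlaps AW495222 on the other strand, so its count is less certain.

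Cysteine genes fell unevenly. Cth, which makes cysteine out of cystathionine, had 31.5, 66.5, 27.7 and 74.5 CPM in the WT_UUO libraries, against 277, 318 and 251 CPM in the WT_normal libraries. It had 44.4, 57.2, 49.99 and 57.8 CPM in the SMOC2_UUO libraries, against 168, 152 and 211 CPM in the SMOC2_normal libraries. Obstructed libraries lay below 75 CPM and normal libraries above 150 CPM, a fall of 5.64-fold in wild-type (edgeR adjusted p = 4.05e-06) and 3.38-fold in SMOC2-labelled kidney (edgeR adjusted p = 8.44e-05). Cbs, which makes cystathionine, fell 5.08-fold and 6.32-fold. Cdo1, which oxidises cysteine toward taurine, fell 1.51-fold in wild-type and 1.88-fold in SMOC2-labelled kidney, the smallest called change of the set in wild-type kidney.

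All 5 glycine and serine genes fell, with medians of -2.07 and -2.29. Gldc, the decarboxylase of the glycine cleavage system, had 20.1, 16.5, 14.3 and 22.7 CPM in the WT_UUO libraries, against 320.1, 209 and 277 CPM in the WT_normal libraries. It had 21.5, 30.2, 35.1 and 41.0 CPM in the SMOC2_UUO libraries, against 268, 176 and 263 CPM in the SMOC2_normal libraries. It fell 14.6-fold in wild-type (edgeR adjusted p = 2.55e-08) and 7.38-fold in SMOC2-labelled kidney (edgeR adjusted p = 1.38e-07), with no overlap between obstructed and normal libraries in either. The other parts of that system fell less in wild-type kidney: Amt, its aminomethyltransferase, 3.02-fold and Gcsh, its lipoyl carrier protein, 4.20-fold. Shmt1 and Shmt2, the cytosolic and mitochondrial enzymes that interconvert serine and glycine, fell 3.28- and 4.41-fold. In SMOC2-labelled kidney the falls were 3.16-fold for Amt, 5.04-fold for Gcsh, 2.43-fold for Shmt1 and 4.90-fold for Shmt2. Shmt2 overlaps Ndufa4l2 and Shmt1 overlaps Smcr8 on the opposite strand, so both counts are uncertain.

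Genes of proline and ornithine breakdown fell, whereas Aldh18a1 and Pycr1 of proline synthesis rose. Prodh, the first enzyme of proline oxidation, had 48.9, 65.1, 52.8 and 81.8 CPM in the WT_UUO libraries, against 401, 395 and 338 CPM in the WT_normal libraries. It had 47.8, 51.0, 62.0 and 62.5 CPM in the SMOC2_UUO libraries, against 364, 311 and 422 CPM in the SMOC2_normal libraries. It fell 6.08-fold (edgeR adjusted p = 3.8e-08) and 6.54-fold (edgeR adjusted p = 2.6e-08) with no overlap. Aldh4a1, which carries the product on to glutamate, fell 3.98- and 4.97-fold. Oat, ornithine aminotransferase, fell only 2.19- and 2.50-fold.

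Aldh18a1, which makes the proline precursor out of glutamate and is not 1 of the 52, had 29.1, 21.5, 22.1 and 18.2 CPM in the WT_UUO libraries, against 4.54, 4.14 and 6.31 CPM in the WT_normal libraries. It had 32.1, 32.6, 26.6 and 23.4 CPM in the SMOC2_UUO libraries, against 5.63, 4.16 and 4.53 CPM in the SMOC2_normal libraries. Every obstructed library was above every normal library, a rise of 4.52-fold in wild-type (edgeR adjusted p = 5.1e-07) and 6.02-fold in SMOC2-labelled kidney (edgeR adjusted p = 1.26e-07). Pycr1, the mitochondrial reductase of the last step, rose 4.31-fold (edgeR adjusted p = 0.000145) and 5.08-fold (edgeR adjusted p = 5.25e-05). Pycr3, a reductase of the same step, fell by 1.14 on the log2 scale in wild-type and fell by 0.99 in SMOC2-labelled kidney. Pycr3 was chosen after its values were seen. Of all 10 neighbouring genes tested for this pathway, 3 were higher and 4 lower in wild-type kidney, and 3 higher and 3 lower in SMOC2-labelled kidney. Those counts are near the shares of all tested genes, 31.3% higher and 29.8% lower in wild-type kidney. In SMOC2-labelled kidney the shares were 32.5% and 30.4%. Levels of Pycr1 were low, at 2.01 to 4.81 CPM in WT_UUO against 0.662 to 0.95 CPM in WT_normal libraries.

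**Figure D3:**
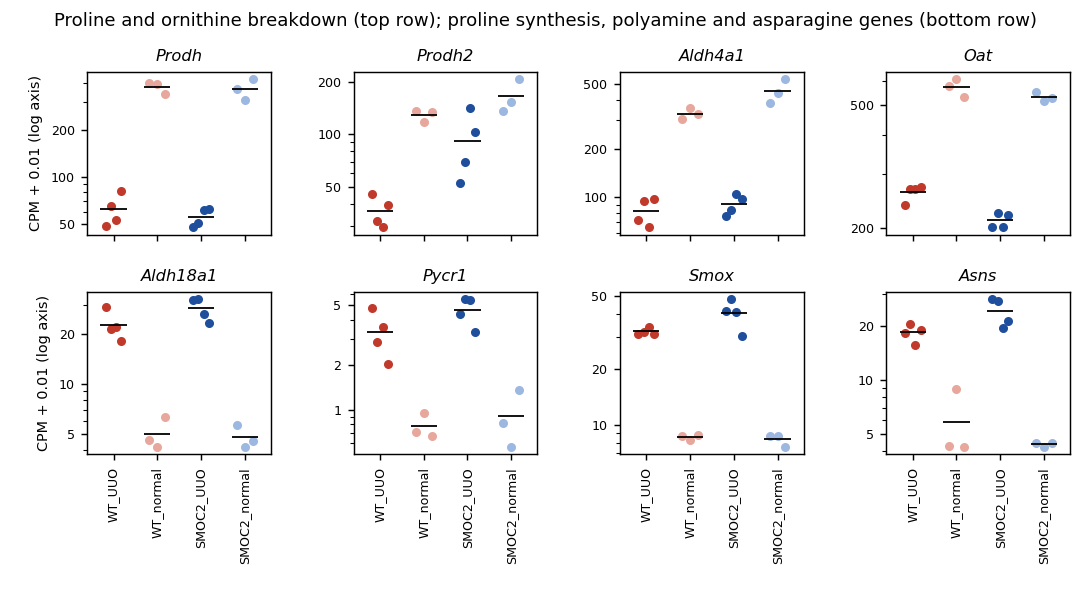
CPM plus 0.01 on a log axis for 8 genes, with 1 point per library and a bar at the group mean; groups run WT_UUO, WT_normal, SMOC2_UUO, SMOC2_normal. Prodh, Aldh4a1 and Oat are lower in every obstructed library, Prodh2 overlaps in the SMOC2-labelled groups, and Aldh18a1, Pycr1, Smox and Asns are higher in every obstructed library.

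Arginine and creatine genes fell apart from Arg2. Ass1, which condenses citrulline and aspartate on the way to arginine, had 46.0, 73.7, 40.4 and 110.5 CPM in the WT_UUO libraries, against 856, 636 and 759 CPM in the WT_normal libraries. It had 72.1, 78.9, 104 and 99.5 CPM in the SMOC2_UUO libraries, against 1027, 1077 and 1078 CPM in the SMOC2_normal libraries. It fell 11.1-fold (edgeR adjusted p = 1.99e-07) and 11.97-fold (edgeR adjusted p = 1.37e-07), and its partner Asl, which releases arginine, fell 3.43- and 3.52-fold. Gatm, which joins arginine and glycine in the committed step of creatine synthesis, had 136, 154, 140.0 and 282 CPM in the WT_UUO libraries, against 1616, 1403 and 2036 CPM in the WT_normal libraries. It had 146, 146, 192 and 195 CPM in the SMOC2_UUO libraries, against 1445, 1204 and 1527 CPM in the SMOC2_normal libraries. Obstructed libraries all lay under 300 CPM and normal libraries all above 1200 CPM. Gatm fell 9.47-fold in wild-type (log2 -3.24, 95% interval -3.77 to -2.72, edgeR adjusted p = 1.04e-07) and 8.20-fold in SMOC2-labelled kidney (edgeR adjusted p = 1.44e-07).

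Gamt, which methylates the product of Gatm to creatine, had 8.26, 9.66, 10.04 and 9.32 CPM in the WT_UUO libraries, against 22.2, 19.4 and 22.1 CPM in the WT_normal libraries. It had 7.72, 10.5, 14.3 and 8.64 CPM in the SMOC2_UUO libraries, against 24.1, 23.2 and 39.3 CPM in the SMOC2_normal libraries. It fell 2.28- and 2.81-fold, less than Gatm in both comparisons, with no overlap of the groups. Outside the 52 genes, and picked after their values were seen, the creatine transporter Slc6a8 fell by 0.82 on the log2 scale, brain-type creatine kinase Ckb fell by 1.53 and mitochondrial Ckmt1 fell by 1.11 in wild-type kidney.

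Arg2, which splits arginine into ornithine and urea, had 45.9, 69.0, 41.2 and 56.1 CPM in the WT_UUO libraries, against 68.3, 107 and 51.3 CPM in the WT_normal libraries. It had 72.4, 59.6, 41.4 and 64.5 CPM in the SMOC2_UUO libraries, against 61.5, 62.7 and 55.8 CPM in the SMOC2_normal libraries. The groups overlapped in both comparisons. The log2 values were -0.51 in wild-type kidney (95% interval -1.01 to -0.00, edgeR adjusted p = 0.0774) and -0.01 in SMOC2-labelled kidney (95% interval -0.52 to 0.50, edgeR adjusted p = 0.967). The wild-type value passed the threshold without WT_UUO replicate 2 (-0.64, edgeR adjusted p = 0.0330) or WT_normal replicate 3 (-0.72, edgeR adjusted p = 0.0167), and was -0.17 without WT_normal replicate 2. Exons of Arg2 overlap Vti1b and Gm48780 on the opposite strand, as 16 of the 52 genes overlap some antisense gene. The sources do not give the strand setting of the counting, so such counts may hold reads of the partner.

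All 11 branched-chain genes fell in both comparisons, within a narrow band of -2.73 to -1.61 on the log2 scale in wild-type kidney and -2.66 to -1.45 in SMOC2-labelled kidney. Aldh6a1, which ends valine breakdown with an oxidative step, had 108, 192, 103 and 226 CPM in the WT_UUO libraries, against 1232, 903 and 994 CPM in the WT_normal libraries. It had 136, 162, 160.3 and 180.3 CPM in the SMOC2_UUO libraries, against 1021, 833 and 1163 CPM in the SMOC2_normal libraries. It fell 6.63-fold (edgeR adjusted p = 5.15e-07) and 6.31-fold (edgeR adjusted p = 5.57e-07), with no overlap of obstructed and normal libraries. Bcat2, the mitochondrial aminotransferase that begins the breakdown, fell 3.45-fold in wild-type and 3.30-fold in SMOC2-labelled kidney. Bckdha and Bckdhb, subunits of the branched-chain ketoacid dehydrogenase, fell 3.82- and 4.23-fold in wild-type and 4.07- and 5.48-fold in SMOC2-labelled kidney.

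Genes of the later branched-chain steps also fell. For leucine, Ivd fell 4.83-fold and the carboxylase subunits Mccc1 and Mccc2 fell 4.08- and 4.38-fold in wild-type kidney. For valine, Hibch and Hibadh fell 3.05- and 4.30-fold. Pcca and Pccb, the subunits of propionyl-CoA carboxylase, fell 3.22- and 3.35-fold. In SMOC2-labelled kidney the falls were 4.91-fold for Ivd, 4.37-fold for Mccc1, 5.06-fold for Mccc2, 2.74-fold for Hibch, 4.34-fold for Hibadh, 3.43-fold for Pcca and 3.35-fold for Pccb.

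Both lysine genes fell. Aass, which starts lysine breakdown through saccharopine, had 38.0, 46.8, 33.0 and 76.5 CPM in the WT_UUO libraries, against 505, 364 and 457 CPM in the WT_normal libraries. It had 27.4, 43.1, 38.5 and 48.8 CPM in the SMOC2_UUO libraries, against 387, 262 and 357 CPM in the SMOC2_normal libraries. It fell 9.12-fold (edgeR adjusted p = 2.69e-07) and 8.51-fold (edgeR adjusted p = 3.08e-07) with no overlap, and Aldh7a1, which makes aminoadipate, fell 3.90- and 3.82-fold.

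Glutamate and aspartate genes had the smallest pathway medians, -1.37 and -1.52, with all 4 lower. Agxt2, an aminotransferase that also breaks down dimethylarginine, had 23.6, 30.4, 22.2 and 38.9 CPM in the WT_UUO libraries, against 97.9, 104 and 89.4 CPM in the WT_normal libraries. It had 17.6, 21.2, 30.1 and 29.9 CPM in the SMOC2_UUO libraries, against 84.3, 80.8 and 75.3 CPM in the SMOC2_normal libraries. It fell 3.37-fold (edgeR adjusted p = 3.39e-06) and 3.25-fold (edgeR adjusted p = 4.35e-06) with no overlap. Glud1, glutamate dehydrogenase, fell 2.62-fold, and the cytosolic and mitochondrial aspartate aminotransferases Got1 and Got2 fell 2.32- and 2.54-fold in wild-type kidney. In SMOC2-labelled kidney Glud1 fell 2.97-fold, Got1 2.79-fold and Got2 2.21-fold.

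**Figure D4:**
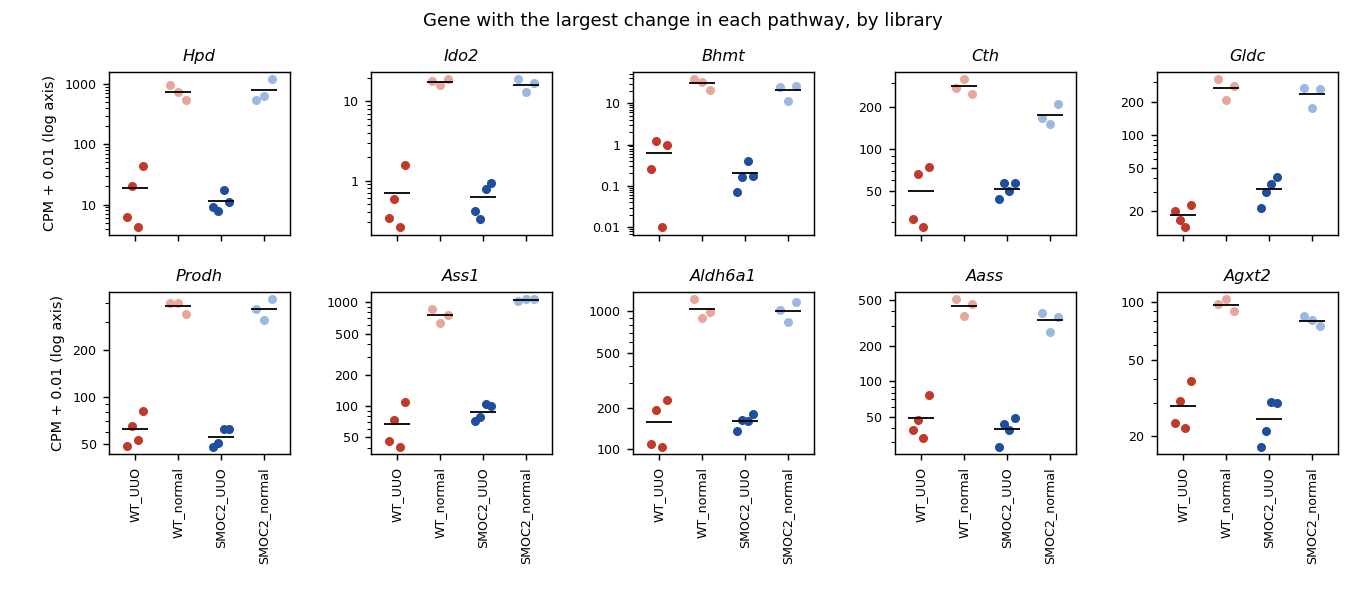
CPM plus 0.01 on a log axis for the gene with the largest wild-type change in each of the 10 pathways, with 1 point per library and a bar at the group mean; groups run WT_UUO, WT_normal, SMOC2_UUO, SMOC2_normal. All obstructed libraries lie below all normal libraries of the same genotype label for each of these 10 genes.

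The order of levels within the set changed as well. Per kilobase of exon, Aadat had the highest level in every group, at 160.4 CPM per kilobase in WT_UUO, 1567 in WT_normal, 144 in SMOC2_UUO and 1655 in SMOC2_normal libraries. Gatm ranked 6 in both obstructed groups, at 59.3 CPM per kilobase in WT_UUO and 56.6 in SMOC2_UUO, and ranked 2 in both normal groups, at 562 in WT_normal and 464 in SMOC2_normal. Oat ranked 2 after obstruction, at 111 CPM per kilobase in WT_UUO and 90.02 in SMOC2_UUO, and ranked 8 without it, at 242 in WT_normal and 225 in SMOC2_normal. Hpd ranked 34 in WT_UUO and 4 in WT_normal, and 39 in SMOC2_UUO and 4 in SMOC2_normal. Arg2, Cdo1 and Pccb were among the 10 highest in the obstructed groups alone.

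Neighbouring genes of the same pathways, a list of 92 drawn up with earlier results of these data known, were less uniform. Of the 81 that could be tested, 59 were lower, 8 higher and 14 not called in wild-type kidney, with a median log2 change of -1.15. Of all tested genes 29.8% were called lower and 31.3% higher there. In SMOC2-labelled kidney 58 were lower, 9 higher and 14 not called, with a median of -1.24, beside 30.4% of all tested genes lower and 32.5% higher. By pathway, the neighbours' median log2 change ran from -2.25 for lysine to 0.06 for proline and ornithine in wild-type kidney. For betaine and methyl groups it was -0.43. In SMOC2-labelled kidney these medians were -2.30, 0.11 and -0.30 in that order. Among the 8 largest called falls in wild-type kidney were those of Abat (which breaks down GABA), Dhtkd1 and Gcdh (lysine), Mpst (cysteine), Kyat3 (tryptophan), Oxct1 (ketone bodies) and Hykk (hydroxylysine). They ran between -2.75 and -2.25 on the log2 scale. In SMOC2-labelled kidney Ahcy, which clears S-adenosylhomocysteine, and Csad, which makes hypotaurine, stood among the 8 in place of Mpst and Hykk, with -2.60 and -2.30.

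Few of these neighbours rose. Asns, asparagine synthetase, had 18.2, 20.5, 15.6 and 18.9 CPM in the WT_UUO libraries, against 4.28, 8.83 and 4.21 CPM in the WT_normal libraries. It had 28.1, 27.5, 19.3 and 21.2 CPM in the SMOC2_UUO libraries, against 4.45, 4.22 and 4.43 CPM in the SMOC2_normal libraries. It rose 3.20-fold (edgeR adjusted p = 2.58e-05) and 5.50-fold (edgeR adjusted p = 9.9e-07), with every obstructed library above every normal one. Smox, spermine oxidase, rose 3.74- and 4.84-fold (edgeR adjusted p = 5.52e-08 and 1.61e-08). Gls2, liver-type glutaminase, rose 2.05- and 2.90-fold at under 2 CPM throughout.

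The rises of Tph1, Arg1 and Hal rested on small levels. Tph1, which starts serotonin synthesis, had 133 counts over the WT_UUO libraries against 4 over the WT_normal libraries, a ratio of 20.2 (95% counting interval 7.69 to 75.1). It had 127 counts over the SMOC2_UUO against 2 over the SMOC2_normal libraries, a ratio of 30.6 (8.31 to 256), and both of those normal counts lay in replicate 4. Both intervals cover counting error alone and leave out the spread between libraries. The edgeR log2 change of Tph1 was 4.29 in wild-type kidney, and 5.41 without WT_normal replicate 3. It was 4.77 in SMOC2-labelled kidney, and 7.84 without SMOC2_normal replicate 4. Arg1, the cytosolic arginase, was called higher in SMOC2-labelled kidney, with 0.872, 5.15, 4.28 and 0.446 CPM in the SMOC2_UUO libraries, against 0.438, 0.111 and 0.104 CPM in the SMOC2_normal libraries. Its edgeR log2 change there was 3.64 (edgeR adjusted p = 0.00292), and 4.58 without SMOC2_normal replicate 1. SMOC2_UUO replicates 2 and 3 were high and replicate 4 lay next to SMOC2_normal replicate 1. In wild-type kidney Arg1 was not called (1.4, edgeR adjusted p = 0.179). Hal, histidine ammonia-lyase, rose 5.05-fold in SMOC2-labelled kidney at under 2 CPM, and its wild-type call (0.92) was lost in 7 of the other settings. Ado, a thiol dioxygenase, was not low, at 34.8 to 42.9 CPM in WT_UUO against 29.8 to 34.1 CPM in WT_normal libraries. It rose only 1.24-fold in wild-type kidney, a call lost without WT_normal replicate 1 or 3.

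The summed level of the 52 genes moved with the markers of the proximal tubule and of other tubule segments. The sum was 2808, 4264, 2780 and 4439 CPM in the WT_UUO libraries, against 19590, 19641 and 18398 CPM in the WT_normal libraries. It was 3337, 3474, 3726 and 3869 CPM in the SMOC2_UUO libraries, against 18931, 18596 and 21610 CPM in the SMOC2_normal libraries. All 12 proximal tubule markers, among them the receptor Lrp2 and the phosphate carrier Slc34a1, were lower in both comparisons, with medians of -2.56 and -2.28. Their summed level ran between 2183 and 5299 CPM in WT_UUO, against 21696 and 25840 CPM in WT_normal libraries. It ran between 3687 and 4918 CPM in SMOC2_UUO, against 23684 and 29600 CPM in SMOC2_normal libraries. All 6 thick limb and distal tubule markers were also lower in both comparisons, with medians of -2.34 and -2.65. Their sum ran between 1759 and 3589 CPM in WT_UUO, against 9322 and 10477 CPM in WT_normal libraries, and between 1640 and 2488 CPM in SMOC2_UUO, against 6746 and 8950 CPM in SMOC2_normal libraries. Of 6 collecting duct markers 4 were lower and 1 higher in wild-type kidney, and 5 lower and 1 higher in SMOC2-labelled kidney, with medians of -1.60 and -2.19. No marker of these lists was at 0 throughout a group. Their part in the fall of the 52 genes was not tested.

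Other cell markers moved too. All 6 fibroblast and myofibroblast markers rose in both comparisons, and their sum was 2657 to 4754 CPM in WT_UUO against 218 to 519.7 CPM in WT_normal libraries, and 3587 to 4852 CPM in SMOC2_UUO against 168 to 319.7 CPM in SMOC2_normal libraries. Macrophage markers rose in 6 of 6 and 5 of 6, with sums of 1018 to 1181 CPM in WT_UUO against 196 to 232 CPM in WT_normal libraries, and of 883 to 1260 CPM in SMOC2_UUO against 189 to 258 CPM in SMOC2_normal libraries. Tubular injury markers rose in 5 of 5 and 4 of 5. Of 5 podocyte markers 3 were lower and 1 higher in each comparison, with medians of -0.56 and -0.79. Of 5 endothelial markers 2 were lower and 0 higher in wild-type kidney, and 1 lower and 1 higher in SMOC2-labelled kidney. No marker of these lists was at 0 throughout a group, and their part in the result was not tested. Many of the 52 genes are also liver genes. Hepatocyte markers summed to 1.52 to 2.36 CPM in WT_UUO against 11.6 to 22.9 CPM in WT_normal, and to 1.24 to 1.79 CPM in SMOC2_UUO against 9.997 to 80.3 CPM in SMOC2_normal libraries, with Ahsg at 0 in every WT_normal library. In the SMOC2_normal libraries that sum was 13.5, 80.3 and 9.997 CPM where Bhmt was at 24.4, 11.2 and 26.6 CPM. In the WT_normal libraries it was 22.9, 16.5 and 11.6 CPM where Bhmt was at 38.3, 32.5 and 20.8 CPM. The part of liver RNA in the result was not tested.

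The 4 WT_UUO libraries differed from each other in a shared way. Replicates 1 and 3 held the lowest value of 19 and 32 of the 52 genes, and replicates 2 and 4 the highest value of 23 and 26. The proximal tubule markers summed to 2204 and 2183 CPM in replicates 1 and 3, and to 4462 and 5299 CPM in replicates 2 and 4. Such shared differences were not particular to WT_UUO. SMOC2_UUO replicate 1 held the lowest value of 37 genes. Among SMOC2_normal libraries, replicate 3 held the lowest value of 33 genes and replicate 4 the highest of 35. The median coefficient of variation of the 52 genes was 22.9% over the WT_UUO and 10.5% over the WT_normal libraries, and 13.8% over the SMOC2_UUO and 13.2% over the SMOC2_normal libraries. Oat varied least among WT_UUO libraries (6.04%) and Hpd most (98.7%).

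Few of the 52 genes were called between genotype labels. In SMOC2_UUO against WT_UUO libraries 1 of 52 was higher and 0 were lower (edgeR's quasi-likelihood test), where 0.558% of all tested genes were called higher and 0.273% lower, and 9 of the 52 had an unadjusted p under 0.05, beside 15.2% of all tested genes. DESeq2 called 5, with Sardh, Gldc and Prodh2 higher and Oat and Bckdhb lower, and limma-voom called Prodh2 alone. The gene called by edgeR was Prodh2, which oxidises hydroxyproline, an amino acid released from collagen. Prodh2 had 52.5, 69.97, 141 and 103 CPM in the SMOC2_UUO libraries, against 45.9, 32.3, 29.6 and 39.5 CPM in the WT_UUO libraries. In untreated kidney it had 136, 154 and 206 CPM in the SMOC2_normal libraries, against 136, 118 and 135 CPM in the WT_normal libraries. Every SMOC2_UUO library was above every WT_UUO library, whereas the normal groups overlapped.

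The difference in Prodh2 after obstruction was 1.31 on the log2 scale (95% interval 0.77 to 1.86, edgeR adjusted p = 0.0316). Its adjusted p ran between 4.45e-05 and 0.0933 over the other settings. The call was lost, among others, without any 1 of WT_UUO replicates 2, 3 and 4 or SMOC2_UUO replicates 2, 3 and 4 and with only the libraries compared. Prodh2 fell 3.52-fold in wild-type kidney (edgeR adjusted p = 4.43e-05) and 1.81-fold in SMOC2-labelled kidney (edgeR adjusted p = 0.0118), where SMOC2_UUO replicate 3 overlapped the normal range and the call was lost without SMOC2_normal replicate 4. The difference between these falls, the interaction of genotype label and obstruction, was 0.96 on the log2 scale with an unadjusted edgeR p of 0.0234 and an edgeR adjusted p = 0.728.

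**Figure D5:**
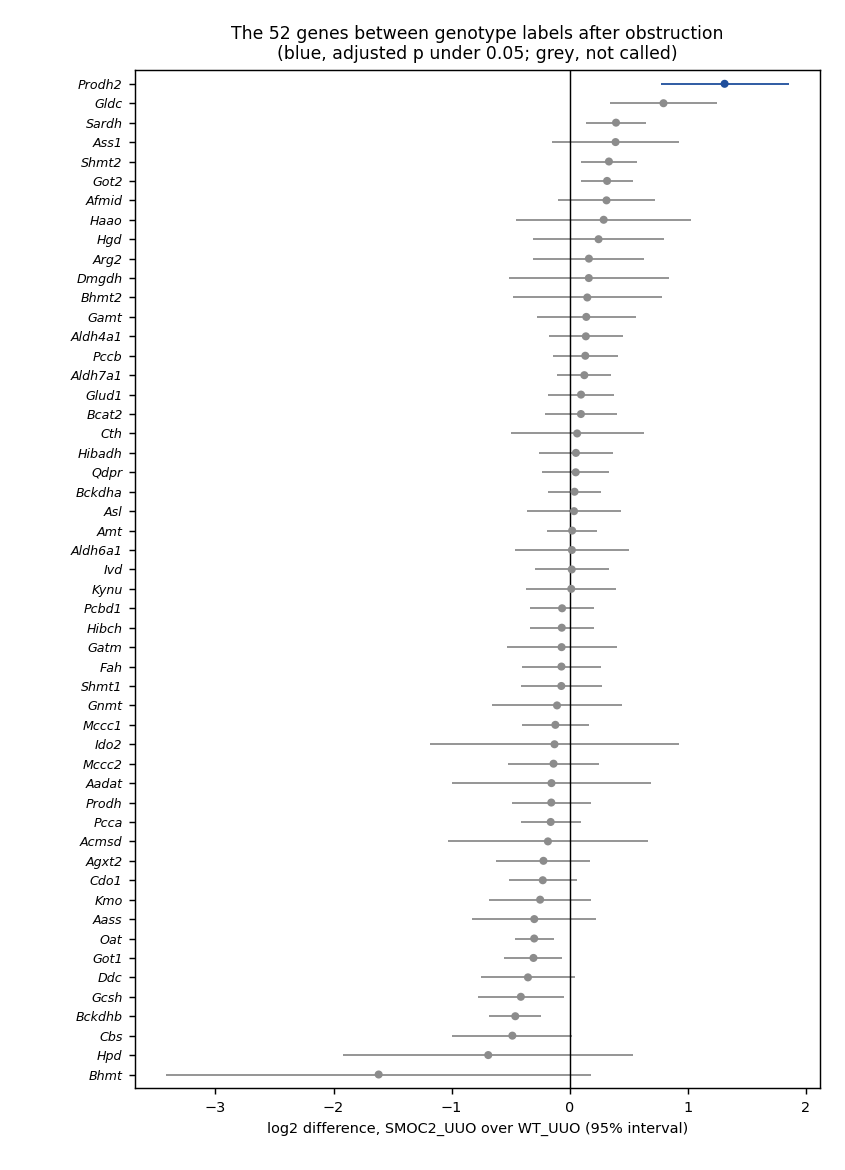
Log2 difference of each gene, SMOC2_UUO over WT_UUO, with edgeR estimates as points and 95% intervals as bars, sorted by size. Prodh2 at 1.31 is the only gene past the threshold, and Bhmt has the lowest estimate, -1.62, with an interval that spans 0.

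Some genes came near the threshold after obstruction. Bckdhb differed by -0.46 (edgeR adjusted p = 0.055), Oat by -0.30 (edgeR adjusted p = 0.0858) and Gldc by 0.80 (edgeR adjusted p = 0.0938). Bhmt differed by -1.62, with a 95% interval of -3.42 to 0.18 and an edgeR adjusted p = 0.386, and by -0.60 with limma-voom, -0.95 without WT_UUO replicate 2 and -2.23 without SMOC2_UUO replicate 3. Bckdhb passed the threshold without WT_UUO replicate 1 (-0.54, edgeR adjusted p = 0.0372) and Sardh without WT_UUO replicate 2 (0.52, edgeR adjusted p = 0.0415). All SMOC2_UUO libraries lay above all WT_UUO libraries for Sardh, Shmt2 and Prodh2, which was so for 5.42% of all tested genes, and below them for Oat and Bckdhb, beside 4.43% of all tested genes.

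In untreated kidney 0 of 52 genes were called between SMOC2_normal and WT_normal libraries by edgeR's quasi-likelihood test, where 0.0223% of all tested genes were called higher and 0.00558% lower. An unadjusted p under 0.05 was reached by 5 of them, beside 12.8% of all tested genes, and DESeq2 called 1, Shmt2 (0.49 with edgeR, edgeR adjusted p = 0.219). All SMOC2_normal libraries were above all WT_normal libraries for 6 genes (8.84% of all tested genes) and below them for 4 (8.01%). Among those above were Ass1, with 1027, 1077 and 1078 CPM in the SMOC2_normal libraries against 856, 636 and 759 CPM in the WT_normal libraries, and Shmt2. Those below were Cth, Shmt1, Pcca and Agxt2. Cth had 168.5, 151.5 and 211.1 CPM in the SMOC2_normal libraries against 277.3, 318.3 and 250.7 CPM in the WT_normal libraries. The interaction of genotype label and obstruction was called for 0 of 52 genes by edgeR's quasi-likelihood test and by DESeq2, where 0% of all tested genes were called higher and 0% lower with edgeR. It had an unadjusted p under 0.05 for 3 genes, Gldc (0.99), Prodh2 (0.96) and Bckdhb (-0.37), beside 6.44% of all tested genes. The 95% interval of the interaction was -2.60 to 1.04 on the log2 scale for Hpd and -0.50 to 0.92 for Gatm.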

How the data were processed

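Gene expression was measured by stranded mRNA sequencing of whole kidney, per the labels' protocols. Per the submitters' processing notes, reads were handled with STAR 2.4.1d and featureCounts 1.4.4 (Subread) on build mm10; the sources used here do not give its annotation or strand setting. The authors deposited raw counts per gene and library, 19483994 to 30033405 in total, so genes of a few counts carry large counting error.

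Symbols came from the GENCODE M21 annotation, which matched 47310 of 47729 identifiers (the rest held 0.0288% of counts). Counts were scaled by TMM and filtered with edgeR's filterByExpr, leaving 17926 genes, and CPM is counts per 1000000 of the scaled library size. One model of 4 group means over all 14 libraries was fitted with edgeR 4.0.16 (R 4.3.3), using the quasi-likelihood test and Benjamini-Hochberg adjustment over all 17926 genes, with a threshold of 0.05. The steps were tested on simulated data. Alternatives were other scalings and filters, DESeq2 1.42.0, voom in limma 3.58.1, a replicate term, only the libraries compared, and each library left out.

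All 52 genes may be named. Values in every library are given for the gene with the largest change of each pathway, genes called higher after obstruction or between genotype labels, and a few that the text turns on. Neighbouring genes are the 8 largest called rises and falls per comparison, of which some are not reported here. The 52 genes and all lists were chosen with earlier results of these data known. No protein sequences were used here.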

Additional observations from a re-analysis of the deposited data

Results flagged for a closer look

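In 3 of 104 groups of 4 obstructed libraries, 1 per gene and group, a library stood apart from the other 3 by Dixon's criterion, which chance meets in about 1 in 20 groups. Oat was at 238 CPM in WT_UUO replicate 1, below the 267 to 272.2 CPM of the other WT_UUO libraries. Gatm was at 281.8 CPM in WT_UUO replicate 4, above 135.6 to 154.3 CPM in the others. Pcbd1 was at 79.61 CPM in SMOC2_UUO replicate 3, above 57.77 to 61.13 CPM in the others. All stayed below every normal library of the same genotype label.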

How the results depend on the processing

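Over all alternatives the number of the 52 genes called lower was 51 to 52 in WT_UUO against WT_normal libraries and 50 to 51 in SMOC2_UUO against SMOC2_normal libraries, with 0 called higher, and the interaction was called for 0 genes throughout. Arg2 in SMOC2_UUO against SMOC2_normal libraries, as reported -0.013, turned to 0.1007 with upper-quartile scaling, 0.0083 without a filter and 0.0023 with only the libraries compared, and ran from -0.1206 to 0.1282 with 1 library left out. Smoc2 in SMOC2_normal against WT_normal libraries ran from -0.5460 to 0.4303 in the same way. In SMOC2_UUO against WT_UUO libraries, 1 higher and 0 lower as reported, upper-quartile scaling and a minimum of 50 counts in 3 libraries each gave 1 lower and 2 changed, DESeq2 gave 3 higher, 2 lower and 5 changed, and only the libraries compared gave 0 higher and 0 changed. Leaving out 1 library gave 0 to 1 higher, 0 to 1 lower and 0 to 2 changed. In SMOC2_normal against WT_normal libraries DESeq2 gave 1 higher and 1 changed. The causes were not tested.

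Of 18 same-numbered pairs of libraries, 1 correlated above 0.1 (range -0.100 to 0.132, median 0.008). The median over 55 pairs with different numbers was -0.002. Both kinds include pairs across genotype labels. Whether replicate numbers pair the libraries was not tested. With the replicate block 0 genes were higher and 0 changed in SMOC2_UUO against WT_UUO libraries, Prodh2 being at 1.26 (edgeR adjusted p = 0.0610), 52 were lower in WT_UUO against WT_normal libraries, with Arg2 at -0.48 (edgeR adjusted p = 0.0371), and the wild-type log2 change of Hpd was -5.95. Over all tested genes, SMOC2_UUO against WT_UUO gave 100 higher and 49 lower as reported, 488 and 269 with DESeq2, 147 and 85 with limma-voom, 45 and 24 with the block, and 29 and 10 with only the libraries compared; SMOC2_normal against WT_normal gave 4 and 1, and 108 and 64 with DESeq2. Upper-quartile scaling shifted the median of all genes by 0.11 in wild-type and 0.12 in SMOC2-labelled kidney. Depth limits Bhmt, Ido2, Tph1 and Arg1, which had few counts in 1 condition.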
